A study of Mus musculus with 20 samples.

Results

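The 40 genes described here are imprinted genes of the mouse, taken by symbol from a table of 29671 genes measured by RNA-seq in the amygdala. By their known parental expression in mouse brain, 14 were placed as maternally expressed and 21 as paternally expressed. The remaining 5 were kept apart (Gnas, Grb10, Igf2r, Ddc and Inpp5f), because their expressed allele differs between tissues or transcripts. Genes placed as maternally or paternally expressed can also differ between tissues or cell types, and Ube3a was placed by its expression in neurons. Of the 40, 38 passed the low-count filter that 16727 genes of the table passed. H19 had 5 counts and Peg12 had 24 counts over all 20 libraries, and neither was tested.

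Each library came from a punch of 1.2 mm taken bilaterally from the amygdala of 1 behaviourally naive male C57B6 mouse at postnatal day 84, bred in house from Taconic stock. The mice were F1 stress-lineage, F1 no-stress-lineage, F2 stress-lineage and F2 no-stress-lineage, with 5 mice in each group. Stress lineage means descent from mice that had gone through chronic unpredictable stress; the sampled mice were the F1 or F2 descendants. The labels name no litter, sire, dissection day or batch, so p-values measure the spread between these mice as sampled. All 20 mice carried both parental copies of 1 inbred strain, so the counts sum both alleles and say nothing of which allele was transcribed.

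Genomic imprinting leaves a gene expressed from the copy inherited from 1 parent, by DNA methylation set in the germ line at control regions of gene clusters. In the Dlk1-Meg3 cluster the paternal copy gives Dlk1, a transmembrane protein related to Notch ligands, and the maternal copy gives the long noncoding RNAs Meg3, Rian and Mirg. In the Snrpn-Ube3a cluster, the counterpart of the human Prader-Willi and Angelman region, the paternal copy gives Snrpn, Ndn, Magel2 and Mkrn3. Neurons there express the ubiquitin ligase Ube3a from the maternal copy, while a long paternal antisense RNA, Snhg14, silences the other copy. Imprinted genes are strongly expressed in the hypothalamus and neighbouring subcortical regions.

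The start sites of Meg3, Dlk1, Snrpn and Ube3a, the genes compared in both clusters, are shown here. The sequences are the RefSeq promoter windows of GRCm38.p6, 250 bases before to 50 bases after the start, on the gene's own strand. Capitals mark the letters TGCCGC or, on the other strand, GCGGCA, the methylated hexamer that the imprint-protecting zinc-finger protein ZFP57 is known to read.
Meg3, chr12:109540746-109541045, plus strand: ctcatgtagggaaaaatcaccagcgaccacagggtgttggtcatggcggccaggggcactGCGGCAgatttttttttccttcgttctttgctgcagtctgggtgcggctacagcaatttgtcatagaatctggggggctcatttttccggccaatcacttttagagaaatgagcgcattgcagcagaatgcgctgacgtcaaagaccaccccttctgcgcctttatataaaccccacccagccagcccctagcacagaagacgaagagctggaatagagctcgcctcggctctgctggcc
Dlk1, chr12:109452573-109452872, plus strand: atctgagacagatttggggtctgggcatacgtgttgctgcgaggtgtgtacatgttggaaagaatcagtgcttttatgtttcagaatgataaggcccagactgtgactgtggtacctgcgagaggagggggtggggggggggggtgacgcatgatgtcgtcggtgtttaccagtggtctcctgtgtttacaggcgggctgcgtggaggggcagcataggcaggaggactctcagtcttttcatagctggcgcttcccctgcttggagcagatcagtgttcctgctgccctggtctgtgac
Snrpn, chr7:60005150-60005449, minus strand: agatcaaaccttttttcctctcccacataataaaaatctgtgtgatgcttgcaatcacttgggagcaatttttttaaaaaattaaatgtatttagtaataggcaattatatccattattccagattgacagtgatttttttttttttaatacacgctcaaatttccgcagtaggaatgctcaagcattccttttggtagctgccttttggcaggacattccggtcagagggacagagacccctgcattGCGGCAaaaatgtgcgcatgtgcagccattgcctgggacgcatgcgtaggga
Ube3a, chr7:59228500-59228799, plus strand: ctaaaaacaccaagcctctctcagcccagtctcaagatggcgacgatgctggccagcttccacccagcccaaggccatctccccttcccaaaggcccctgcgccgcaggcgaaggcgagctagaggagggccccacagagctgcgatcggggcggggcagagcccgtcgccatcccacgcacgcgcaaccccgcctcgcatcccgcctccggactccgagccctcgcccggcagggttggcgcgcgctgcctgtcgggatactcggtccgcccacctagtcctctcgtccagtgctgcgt
The Meg3 and Snrpn windows shown held the hexamer, and the Dlk1 and Ube3a windows shown did not. RefSeq has 1 more window for Meg3 and 3 more for Snrpn, none with the hexamer. Of 33 imprinted genes with a window in the table, 14 held it in at least 1 window (42.4%), against 13.1% of 27025 genes. Snrpn and Snurf have 1 window in common, which counts for both genes. Per window the shares were 15 of 53 (28.3%) for the imprinted genes and 11.6% of all 32851 windows. Mest windows starting at bases 30737800 and 30737803 overlap almost fully, both hold the hexamer and were counted separately. The windows of the imprinted genes also held more CpG dinucleotides, with a median of 13 per window against 7 in all windows and its part in the motif's share was not tested. No binding or methylation was measured.

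Mirg is named for the miRNAs it hosts. Mature miRNAs within its exons include those shown here from RefSeq, with the seed, bases 2 to 8, in capitals.
miR-134-5p: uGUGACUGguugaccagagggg
miR-485-3p: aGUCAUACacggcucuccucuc
miR-377-3p: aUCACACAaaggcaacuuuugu
miR-410-3p: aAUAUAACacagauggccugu
Exons of Meg3 hold miR-770-5p.
miR-770-5p: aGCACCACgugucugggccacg
No pair of these shares a seed. The poly-A libraries measured the host transcripts, and no mature miRNA was counted.

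Levels are given as CPM, counts scaled to a common library size of 1000000 with the TMM factors of the fit, and each sequence of values runs through the mice of a group in the order of their replicate numbers (1 to 5 for F1 stress, 6 to 10 for F1 no-stress, 11 to 15 for F2 stress, 16 to 20 for F2 no-stress). Library totals lay between 13654890 and 13714805 counts. On a scale per kilobase of the longest annotated transcript, Snrpn averaged 312 CPM per kb, Meg3 averaged 236, the nucleosome-assembly protein Nap1l5 averaged 180 and the membrane protein Nnat averaged 99.8. The exons of Snurf lie wholly within those of Snrpn and cover 10% of the Snrpn exon length. Reads of Snurf thus cannot be told apart from Snrpn reads of that part. Within groups the imprinted genes varied more than the median gene: the median within-group SD was 0.39 (log2 CPM) over the 38, against 0.23 over all genes tested. Snrpn (SD 0.11) and Copg2 (SD 0.10) were the most even, while Calcr (SD 1.1) and Magel2 (SD 1.06) were the most variable.

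In F1, no imprinted gene was called between stress and no-stress lineages by edgeR's quasi-likelihood test with Benjamini-Hochberg adjustment. The background was 0% of all genes, so the absence of calls was shared by the whole table, and DESeq2 and limma-voom also called 0 imprinted genes. At an unadjusted p below 0.05, 2 of 38 passed (5.26%), against 6.16% of all genes. The log2 fold changes nevertheless leaned upwards, with 31 of 38 positive and a median of 0.19, against 51% positive and a median of 0.0042 over all genes tested. These counts carry no test. The median was 0.0079 with 1 surrogate variable in the fit, where 20 of 38 were positive. Striatal markers had a lower median in F1 stress libraries. There 18 genes summed to 2378 to 5979 CPM with a median of 4393, against 3075 to 10275 CPM with a median of 7828 in F1 no-stress libraries. With striatal and pallial marker scores in the fit the median log2 fold change was 0.19. The scores were centred within each group, so that fit could not take up a difference in marker level between groups. The part of striatal content in the upward lean was not tested. In bulk tissue, fewer cells of a type and less RNA per cell cannot be told apart.

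In F2, 1 of the 38 was called, Ube3a, which was higher in the stress lineage. Of all genes tested, 7.92% were called and 2.64% were called higher, and 1 of 38 lies close to the latter share. At an unadjusted p below 0.05, 6 of 38 passed (15.8%), against 25.6% of all genes. Positive log2 fold changes numbered 27 of 38, with a median of 0.12, against 50.2% and 0.0013 over all genes; without F2 stress replicate 14 they numbered 20, with a median of 0.02. No imprinted gene had groups without overlap in F1 or in F2, where 1.24% and 4.61% of all genes did.

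**Figure D1:**
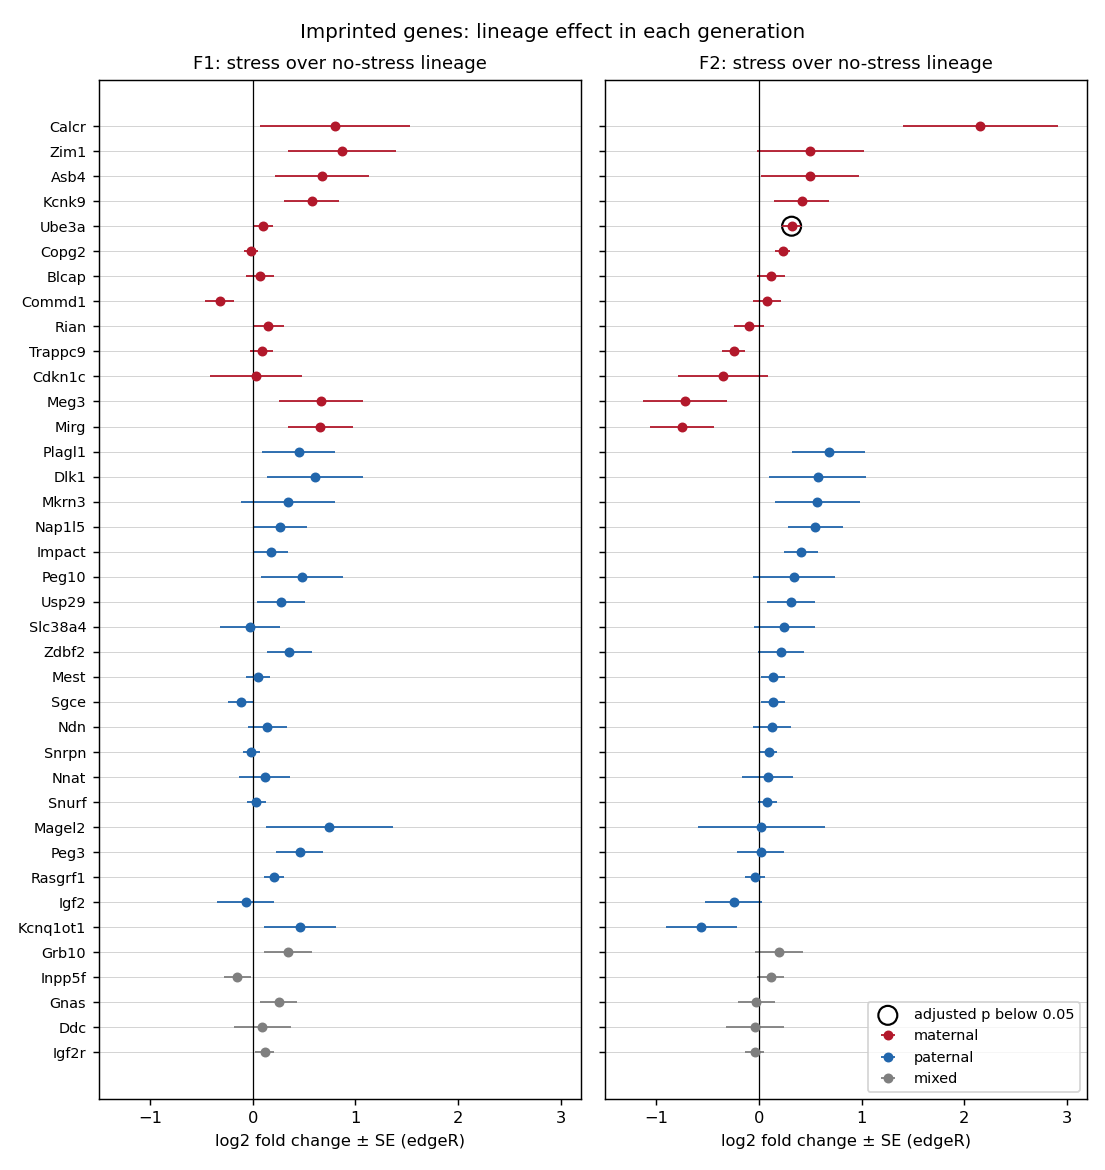
Log2 fold change of each of the 38 imprinted genes, stress over no-stress lineage, in F1 (left) and F2 (right), with the SE of the edgeR fit as bars and colour for the parental class; the ring marks an adjusted p below 0.05. In F1, 31 points lie right of 0 and none is ringed; in F2, 27 lie right of 0 and the ring is on Ube3a.

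Among the maternally expressed genes, Ube3a led the Snrpn-Ube3a cluster. Ube3a had 128, 143, 144, 138 and 103 CPM in F2 stress mice, against 97.4, 100.4, 99.3, 113 and 116 CPM in F2 no-stress mice. The groups overlapped through 1 animal, stress replicate 15, and the other 4 stress mice lay above every no-stress mouse. Means were 131 ± 16.9 CPM in F2 stress mice and 105 ± 8.58 CPM in F2 no-stress mice (SD, n = 5 each), and the log2 fold change was 0.32 (SE 0.091, edgeR quasi-likelihood test, adjusted p = 0.036). The call was lost with library totals (adjusted p = 0.050), with no low-count filter (0.056), when just the 10 F2 libraries were fitted (0.13), and with an offset that removes library trends over GC content and length of the transcripts (0.12). It was also lost without any 1 of F2 stress replicates 11 to 14 or F2 no-stress replicates 16 to 18, where adjusted p ran up to 0.097. Under every alternative run the log2 fold change lay between 0.28 and 0.39. The GC trend of the libraries moved with the F2 groups. This trend is the median log2 deviation from gene means of the 10% of genes richest in GC, minus that of the 10% poorest. It was -0.30, -0.38, -0.40, -0.10 and 0.21 in F2 stress mice, against 0.61, 0.44, 0.48, 0.27 and -0.099 in F2 no-stress mice. GC-rich genes thus read lower in 4 stress libraries than in 4 no-stress libraries, and stress replicate 15 and no-stress replicate 20 lay on the other side. The longest Ube3a transcript has 36.9% GC. With the offset, 8 of 16727 genes were called in F2 (0.0478%).

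In F1 the same gene had 143, 146, 151, 136 and 118 CPM in stress mice, against 130, 134, 134, 115 and 132 CPM in no-stress mice. The ranges overlapped, and the log2 fold change was 0.10 (SE 0.090, adjusted p = 0.77, edgeR). The F2 effect minus the F1 effect was 0.21 on the log2 scale (SE 0.13, adjusted p = 0.35, edgeR), so a difference between generations was not shown. F2 no-stress mice stood 0.29 below F1 no-stress mice on the log2 scale (edgeR, adjusted p = 0.083).

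Snhg14, the antisense RNA of Ube3a, was more uneven. It had 96.9, 148, 240.5, 307 and 92.1 CPM in F2 stress mice, against 132, 282, 98.0, 199 and 434 CPM in F2 no-stress mice. The ranges overlapped widely and the log2 fold change was -0.37 (SE 0.38, edgeR, adjusted p = 0.57). Exons of Snhg14 overlap 8.7% of the annotated exon length of Ube3a, and all annotations on the opposite strand together overlap 27.3%. The libraries were stranded, but the strand setting of the counting is not given in the sources used here, so reads of Ube3a and its antisense partner may not be fully separated.

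Snrpn, which encodes a neuronal spliceosome protein, was the steadiest gene of the cluster. It had 689, 675, 642, 679 and 664 CPM in F2 stress mice, against 611, 630.4, 709.7, 664 and 522 CPM in F2 no-stress mice. The stress mice all fell inside the no-stress range, and the log2 fold change was 0.094 (SE 0.082, edgeR, adjusted p = 0.49). In F1 it had 617, 677, 604, 586 and 724 CPM in stress mice, against 676, 651, 693, 627 and 596 CPM in no-stress mice, which overlapped almost completely (log2 fold change -0.016, SE 0.082). Both signs turned with the GC and length offset, to -0.020 in F2 and 0.012 in F1. Snhg14 apart, all 6 tested genes of the cluster had positive log2 fold changes in F2, from 0.024 for Magel2 to 0.57 for Mkrn3, and 5 did in F1. Without F2 stress replicate 14 the F2 value was -1.09 for Magel2 and 0.87 for Mkrn3, and with 1 surrogate variable it was -0.78 for Magel2 (edgeR, adjusted p = 0.032). The fit with 1 surrogate variable called 13.2% of all genes in F2.

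The ratio of paternal Snrpn to maternal Ube3a was compared within each library, where a change of scale cancels. The log2 ratio of counts was 2.43, 2.24, 2.16, 2.30 and 2.69 in F2 stress mice, against 2.65, 2.65, 2.84, 2.55 and 2.17 in F2 no-stress mice. Of the stress mice, 4 lay below 4 of the no-stress mice, and replicates 15 and 20 crossed to the other side. The means differed by -0.21 (2.36 ± 0.21 against 2.57 ± 0.25, SD, n = 5 each; exact two-sided permutation test, p = 0.19, adjusted over 4 ratio tests 0.38). With the GC and length offset the difference was -0.30 with an exact p = 0.0079, the smallest that the exact test of 5 against 5 allows. That p was not adjusted for the ratio tests or the settings run. Without the offset and with each library left out in turn, the exact p ran from 0.063 to 0.37. In F1 the mean log2 ratio was 2.21 ± 0.24 in stress mice and 2.33 ± 0.10 in no-stress mice (SD, n = 5 each; difference -0.12, exact p = 0.36), and this difference was 0.054 with the offset. The F2 difference minus the F1 difference was -0.090 (permutation p = 0.65).

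**Figure D2:**
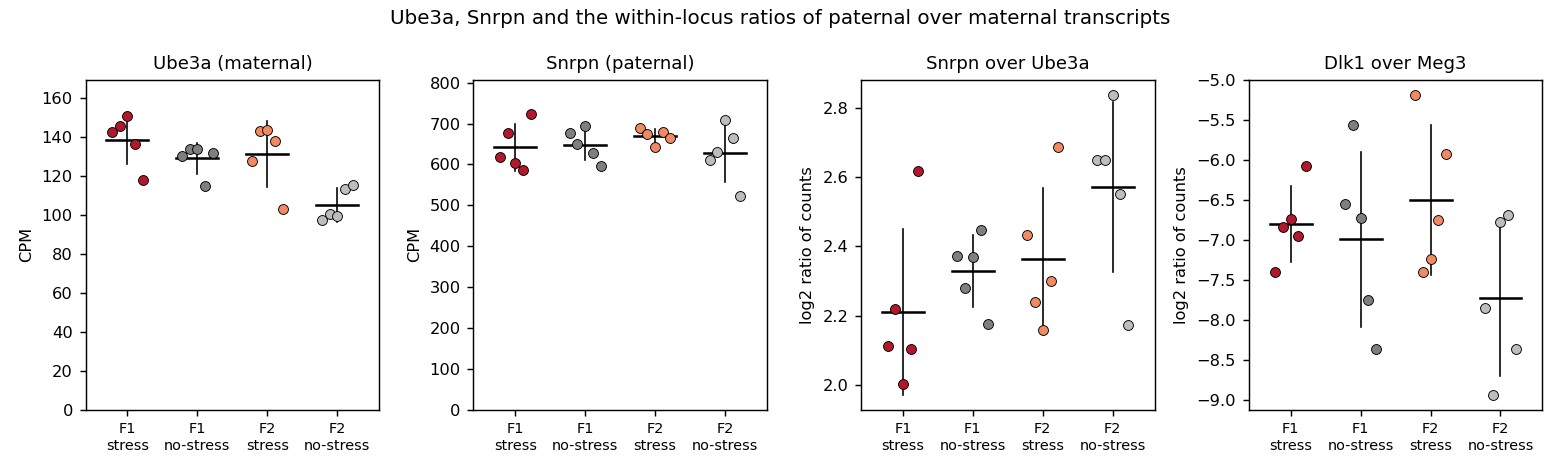
CPM of Ube3a and Snrpn and the log2 ratios of counts of Snrpn over Ube3a and of Dlk1 over Meg3, with 1 point per mouse in the 4 groups; lines mark the mean and bars the SD of 5 mice. In F2, 4 stress mice lie above every no-stress mouse for Ube3a, and replicate 15, at 103 CPM, does not.

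In the Dlk1-Meg3 cluster 4 of 4 genes had positive log2 fold changes in F1 and 1 of 4 in F2, and none was called. Meg3 was the most abundant imprinted transcript by counts and varied 5.98-fold over the 20 libraries. It had 2949.5, 4234, 5595, 4085 and 1925 CPM in F1 stress mice, against 3279.9, 1889, 1931, 2145 and 2593 CPM in F1 no-stress mice. Of the F1 stress mice, 3 lay above every no-stress mouse, and replicate 5 lay among the lowest (log2 fold change 0.67, SE 0.41, edgeR, adjusted p = 0.74). In F2 it had 1655, 1974, 3430.4, 5794 and 1488 CPM in stress mice, against 3103, 6013, 1793, 3904 and 8893 CPM in no-stress mice. Here 3 of the 5 stress mice were at or near the bottom and no-stress replicates 17 and 20 were the highest (log2 fold change -0.73, SE 0.41, edgeR, adjusted p = 0.28). The value was -1.15 without stress replicate 14 and -0.37 without no-stress replicate 20.

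Mirg varied much as Meg3 did, at a lower level. It had 21.98, 26.1, 34.2, 27.2 and 15.2 CPM in F1 stress mice, against 20.7, 13.2, 13.5, 15.6 and 16.1 CPM in F1 no-stress mice. It had 14.7, 11.5, 20.9, 35.3 and 11.1 CPM in F2 stress mice, against 25.4, 39.6, 15.2, 28.7 and 48.8 CPM in F2 no-stress mice. Stress mice were mostly higher in F1 and mostly lower in F2, with overlap in both generations. The log2 fold change was 0.66 (SE 0.32) in F1 and -0.75 (SE 0.31) in F2, with adjusted p = 0.74 and 0.14 by edgeR. The F2 effect minus the F1 effect was -1.41 (SE 0.45, adjusted p = 0.082) for Mirg and -1.39 (SE 0.58, adjusted p = 0.17) for Meg3 by edgeR. Without F2 stress replicate 14 the interaction was called for both, at -1.77 for Mirg (adjusted p = 0.012) and -1.82 for Meg3 (adjusted p = 0.042), where 8.89% of all genes were called. Without F2 no-stress replicate 20 it was -1.20 for Mirg (edgeR, adjusted p = 0.12) and -1.04 for Meg3 (adjusted p = 0.29). With all libraries this difference was called for no imprinted gene, against a background of 2.52% of all genes; DESeq2 called 1, Mirg, and limma-voom called 0. At an unadjusted p below 0.05, 3 of 38 passed (7.89%), against 21.2% of all genes, and 16 of 38 were positive (42.1%), against 49.4%.

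Rian, the host of many small nucleolar RNAs, had 714, 634, 691, 1102 and 659 CPM in F2 stress mice, against 686, 898, 617, 801 and 1069 CPM in F2 no-stress mice. It thus spanned a far narrower range than Meg3, with the highest values again in replicates 14 and 20. Across the 20 libraries, with group means removed, the log2 CPM of Meg3 and Mirg had a Pearson r of 0.98 and a Spearman rho of 0.97 (permutation p = 1e-05 for each, the smallest that 100000 shuffles within groups give; adjusted over 7 pairs 3.5e-05). Meg3 and Rian had r = 0.87 and rho = 0.84 (permutation p = 9e-05 and 0.00012; adjusted 0.00016 and 0.00021). Without the 2 farthest libraries, replicates 14 and 20, r was 0.97 for Mirg and 0.79 for Rian.

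Dlk1 is the paternally expressed gene of the cluster. It had 45.6, 11.6, 22.6, 54.0 and 24.4 CPM in F2 stress mice, against 13.4, 12.2, 16.4, 37.7 and 26.8 CPM in F2 no-stress mice. In F1 it had 17.5, 37.0, 52.5, 33.0 and 28.5 CPM in stress mice, against 34.9, 39.9, 18.3, 9.91 and 7.80 CPM in no-stress mice. Ranges overlapped in both generations, and the log2 fold changes of 0.57 in F2 (SE 0.47, adjusted p = 0.47) and 0.60 in F1 (SE 0.47, adjusted p = 0.76) were close to their errors by edgeR. The F2 value was 0.29 without replicate 14, and the F1 value was 0.099 with 1 surrogate variable and 0.92 without F1 no-stress replicate 7. Its correlation with Meg3 was r = 0.30 and rho = 0.30 (permutation p = 0.22 for each; adjusted 0.22 and 0.26), and r was 0.12 without replicates 14 and 20. With striatal and pallial marker scores regressed out r was -0.37 (permutation p = 0.095).

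The log2 ratio of Dlk1 to Meg3 counts was -5.18, -7.40, -7.24, -6.74 and -5.93 in F2 stress mice, against -7.85, -8.94, -6.77, -6.69 and -8.37 in F2 no-stress mice. Stress replicates 11 and 15 lay above all no-stress mice, and the other stress mice lay inside their range. The mean difference was 1.22 (-6.50 ± 0.93 against -7.72 ± 0.98, SD, n = 5 each; exact two-sided permutation test, p = 0.095, adjusted over 4 tests 0.38). In F1 the means were -6.80 ± 0.48 in stress mice and -6.99 ± 1.09 in no-stress mice (SD, n = 5 each; difference 0.19, exact p = 0.73). The F2 difference minus the F1 difference was 1.03 (permutation p = 0.24).

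**Figure D3:**
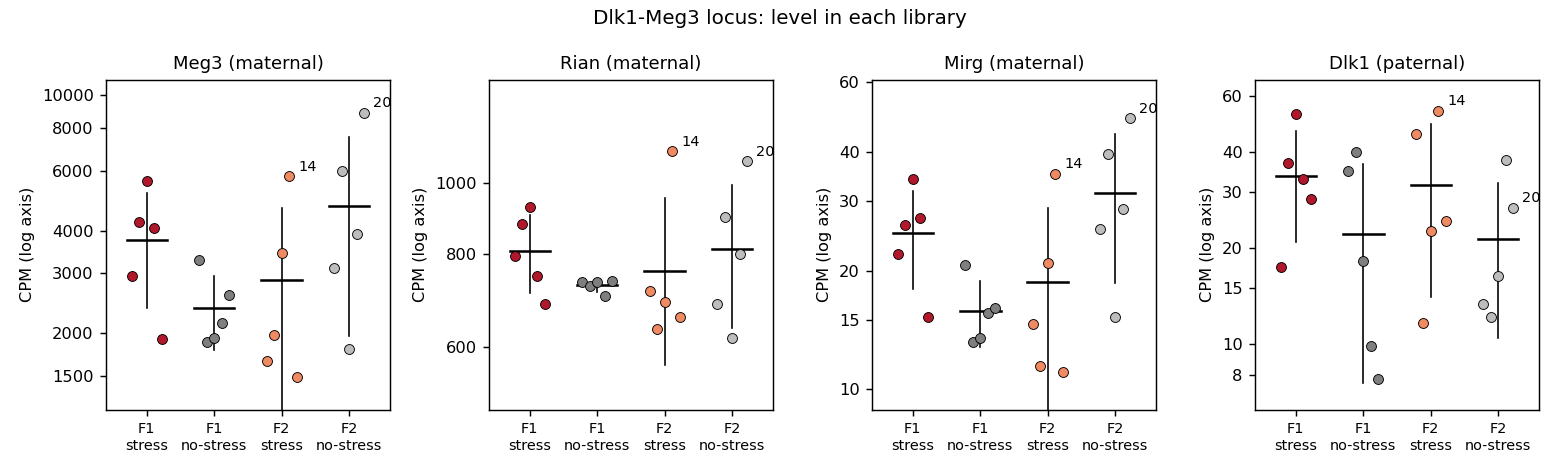
CPM on a log axis of the maternally expressed Meg3, Rian and Mirg and the paternally expressed Dlk1 in each mouse of the 4 groups; lines mark the mean and bars the SD of 5 mice, and F2 replicates 14 and 20 are labelled. Replicate 20 is highest for Meg3 and Mirg, at 8893 and 48.8 CPM, and replicate 14 is highest for Dlk1, at 54.0 CPM.

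Among the other maternally expressed genes, Copg2, a coatomer subunit of vesicle transport, had 105, 95.5, 93.3, 86.8 and 95.1 CPM in F2 stress mice, against 80.9, 80.3, 73.4, 87.3 and 84.1 CPM in F2 no-stress mice. Of the stress mice, 4 were above every no-stress mouse and replicate 14 was below the highest of them. The log2 fold change was 0.23 (SE 0.072), just short of the threshold by edgeR (adjusted p = 0.053), and it passed with DESeq2 (adjusted p = 0.015). DESeq2 called 12.3% of all genes in F2. With the GC and length offset the log2 fold change of Copg2 was 0.12 (edgeR, adjusted p = 0.40). In F1, Copg2 had 97.7, 88.0, 100.4, 103 and 95.4 CPM in stress mice, against 86.8, 107, 105, 95.2 and 97.9 CPM in no-stress mice, with full overlap (log2 fold change -0.018). F2 no-stress mice stood 0.27 below F1 no-stress mice (log2, SE 0.072, edgeR, adjusted p = 0.050, above the threshold before rounding).

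Commd1, a regulator of copper handling, was the imprinted gene with the smallest p in F1. It had 10.5, 10.9, 10.6, 10.5 and 15.5 CPM in F1 stress mice, against 13.8, 14.1, 14.4, 14.5 and 15.9 CPM in F1 no-stress mice. Of the stress mice, 4 lay below every no-stress mouse and replicate 5 lay among them (log2 fold change -0.32, SE 0.14, edgeR, adjusted p = 0.74). Without replicate 5 the log2 fold change was -0.45. In F2 the gene had 18.1, 11.1, 10.2, 13.2 and 15.3 CPM in stress mice, against 13.8, 13.1, 12.9, 13.5 and 11.2 CPM in no-stress mice, and the stress mice lay on both sides (log2 fold change 0.077, SE 0.14).

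Kcnk9, a leak potassium channel, had 10.3, 16.6, 14.8, 13.2 and 9.98 CPM in F1 stress mice, against 12.3, 8.45, 6.26, 7.82 and 8.71 CPM in F1 no-stress mice. Only no-stress replicate 6 reached into the stress range (log2 fold change 0.57, SE 0.27, edgeR, adjusted p = 0.74). With striatal and pallial scores in the fit it was 0.58 and passed (edgeR, adjusted p = 0.031), as did 221 of 16727 genes (1.32%), and with 1 surrogate variable it was 0.18. In F2 it had 9.63, 8.91, 11.7, 22.2 and 5.36 CPM in stress mice, against 7.34, 8.30, 9.93, 9.37 and 8.44 CPM in no-stress mice, with the highest and the lowest value both in the stress group. The F2 log2 fold change of 0.42 was 0.038 without replicate 14.

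Calcr, the calcitonin receptor, had 2.42, 0.453, 0.932, 10.9 and 0.982 CPM in F2 stress mice, against 0.454, 0.370, 0.290, 1.51 and 0.866 CPM in F2 no-stress mice. Replicate 14 stood far above all other mice of both generations, and the rest overlapped. The log2 fold change of 2.16 (SE 0.76, edgeR, adjusted p = 0.082) was 0.77 without replicate 14 (adjusted p = 0.43). In F1, Calcr had 1.06, 3.77, 2.57, 1.0 and 1.46 CPM in stress mice, against 2.29, 1.60, 0.528, 0.745 and 0.459 CPM in no-stress mice (log2 fold change 0.80, SE 0.73).

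Impact, a paternally expressed inhibitor of amino-acid starvation signalling, had 393, 276, 351, 484 and 265 CPM in F2 stress mice, against 209, 242, 247, 318 and 315 CPM in F2 no-stress mice. Stress replicates 11, 13 and 14 lay above every no-stress mouse and replicates 12 and 15 inside the no-stress range (log2 fold change 0.41, SE 0.17, edgeR, adjusted p = 0.13). Without replicate 14 it was 0.27. In F1, it had 299, 396, 432, 364 and 305 CPM in stress mice, against 379, 363, 332, 247 and 268 CPM in no-stress mice, which overlapped (log2 fold change 0.18, SE 0.17).

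The other 28 tested imprinted genes were not called in any comparison. In F1 their log2 fold changes ran from -0.15 (Inpp5f) to 0.87 (Zim1), with 24 positive, and in F2 from -0.56 (Kcnq1ot1) to 0.68 (Plagl1), with 19 positive. Without F2 stress replicate 14 the F2 value was -0.022 for Plagl1 and -0.41 for Zim1. The smallest adjusted p among them was 0.74 in F1 and 0.18 in F2 by edgeR. Igf2 shares 62.8% of its exon length with another annotation on the same strand, so its reads cannot be assigned with certainty.

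Replicate 14 of the F2 stress lineage held the highest value of 16 of the 38 imprinted genes (42.1%), against 9.55% of all genes tested. Plagl1, a zinc-finger transcription factor, had 85.8 CPM there, against 14.4 to 23.9 CPM in the other F2 stress mice. Zim1, a maternally expressed zinc-finger gene, had 71.7 CPM there, against 8.76 to 18.2 CPM in the others. Magel2, which acts in hypothalamic neurons, had 28.1 CPM there, against 1.96 to 6.45 CPM in the others. The highest values in F1 stress mice were 38.6 CPM for Plagl1, 43.4 CPM for Zim1 and 18.7 CPM for Magel2. Some regional marker lists of the punch stood apart in replicate 14 too. The 16 markers of hypothalamus and medial amygdala summed to 283 CPM in it, against 75.0 to 175 CPM in all other libraries, and the striatal list summed to 1317 CPM, the lowest of the 20. Of the 283 CPM of the hypothalamus and medial amygdala markers, 121 CPM came from the glutamate transporter Slc17a6. Of the 16 markers, 7 were highest in this mouse and 3 were at 0, among them Nr5a1. The transcription factors Sim1 and Otp, named after their values were seen, were at 3.80 and 5.28 CPM in it, against 0 to 1.21 and 0 to 0.924 CPM elsewhere, while Lhx5, at 0.493 CPM, was below its 0.858 CPM in F1 stress replicate 3. The mouse also had the lowest sums of the 20 for the lists of oligodendrocytes (1787 CPM, against 2768 to 5798 CPM elsewhere), microglia (325 CPM, against 375 to 693 CPM), endothelium (174 CPM, against 199.9 to 328 CPM) and choroid plexus and meninges (38.8 CPM, against 46.7 to 106 CPM). Its central amygdala list (394 CPM, against 350 to 586 CPM elsewhere) and pallial list (2748 CPM, against 1658 to 4220 CPM) lay within the other libraries' range. So did its astrocyte list (4084 CPM, against 3952 to 5623 CPM) and pan-neuronal list (6729 CPM, against 5939 to 9233 CPM). The part of dissection in the values of replicate 14 was not tested. Without it, Mirg, Copg2 and Mkrn3 were called in F2 by edgeR (adjusted p = 0.020, 0.029 and 0.047) and Ube3a was not (0.051); 11.3% of all genes were called there. Mkrn3, a paternally expressed ring-finger gene, ran the other way in that mouse: it had 1.43, 1.59, 1.0, 0.0704 and 1.06 CPM in F2 stress mice, against 0.606, 0.518, 0.798, 0.504 and 1.01 CPM in F2 no-stress mice.

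**Figure D4:**
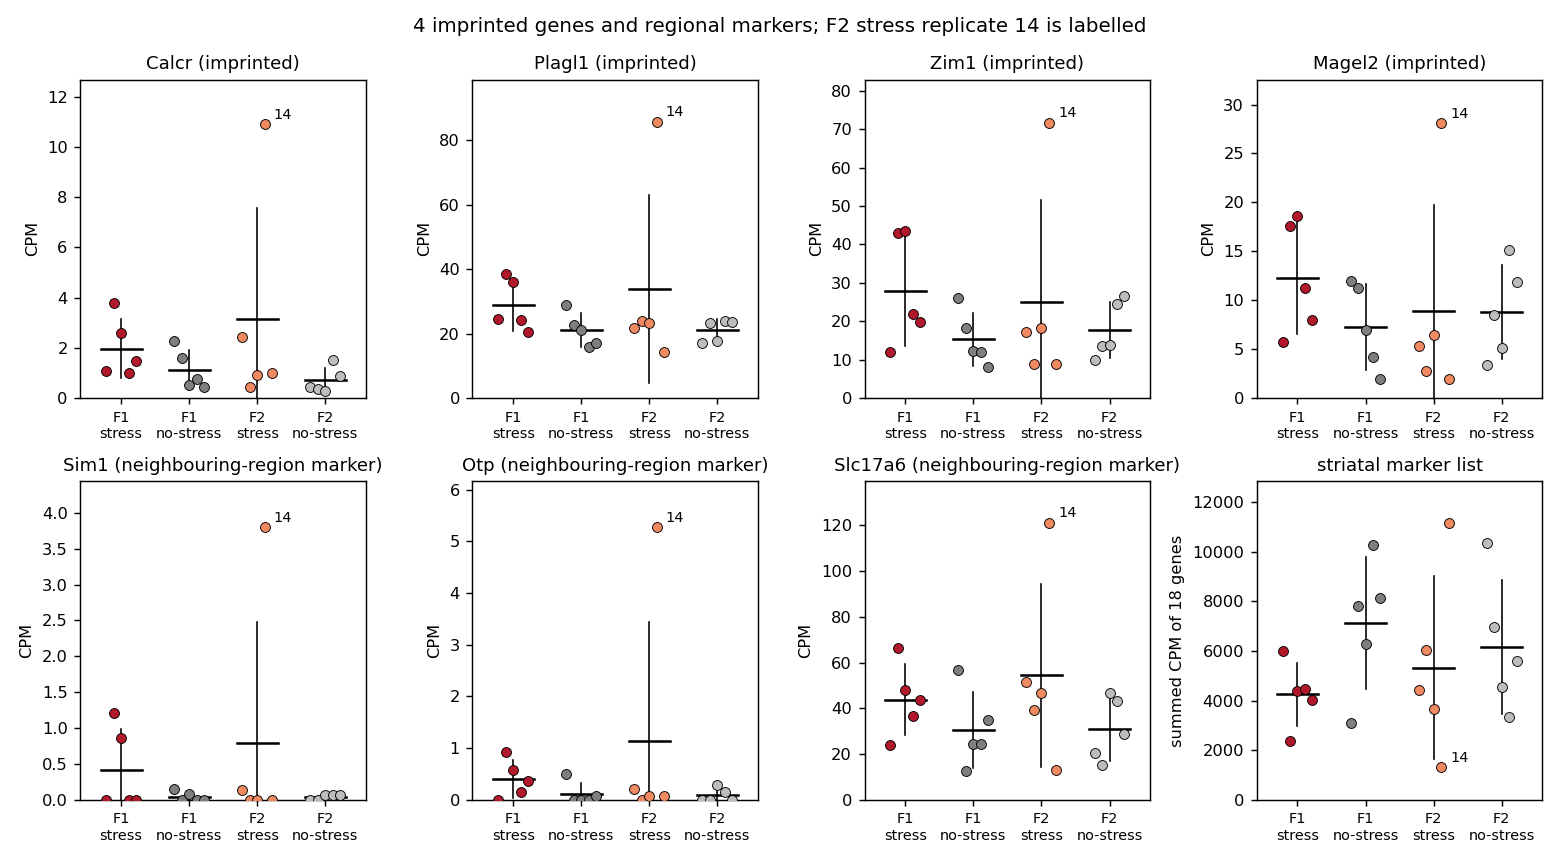
CPM per mouse of the imprinted genes Calcr, Plagl1, Zim1 and Magel2 (top) and of the regional markers Sim1, Otp and Slc17a6 and the summed CPM of the 18 striatal markers (bottom) in the 4 groups; lines mark the mean and bars the SD of 5 mice. F2 stress replicate 14 is highest in the 7 panels of single genes and lowest in that of the striatal list, at 1317 CPM.

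The other extreme mouse was F2 no-stress replicate 20, which held the highest value of 4 imprinted genes, among them Meg3, Mirg and Kcnq1ot1, a share of 10.5% against 14.5% of all genes. Kcnq1ot1, a nuclear antisense RNA expressed from the paternal copy, had 5.28, 10.2, 15.1, 14.4 and 8.84 CPM in F2 stress mice, against 7.50, 23.3, 7.32, 12.3 and 29.0 CPM in F2 no-stress mice. As for Meg3, replicates 17 and 20 were the highest. Slc17a7, the transporter of pallial excitatory neurons, was at 29.5 CPM in replicate 20, against 88.6 to 961 CPM in the other 19 libraries. The 15 pallial markers summed to 1730 CPM in replicate 20, above the 1658 CPM of F1 stress replicate 3. Their mean log2 CPM was lowest in replicate 20, at 3.22, against 3.79 in F1 stress replicate 3.

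Set against each other, the parental classes had medians within 0.1 of each other. In F1, 11 of 13 maternally expressed genes had positive log2 fold changes with a median of 0.15, and 16 of 20 paternally expressed genes had positive ones with a median of 0.24. In F2 the counts were 8 of 13 with a median of 0.12 for the maternal class and 17 of 20 with a median of 0.14 for the paternal class. The 5 genes of mixed expression had medians of 0.11 in F1 and -0.026 in F2. The maternal median minus the paternal median was -0.084 in F1 and -0.020 in F2; without F1 no-stress replicate 8 the F1 value was 0.26. The mean log2 CPM of the maternal class minus that of the paternal class was -0.71 ± 0.082 in F1 stress mice and -0.76 ± 0.11 in F1 no-stress mice (SD, n = 5 each). It was -0.77 ± 0.25 in F2 stress mice and -0.70 ± 0.15 in F2 no-stress mice (SD, n = 5 each). These differences between lineages were smaller than the spread between mice.

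**Figure D5:**
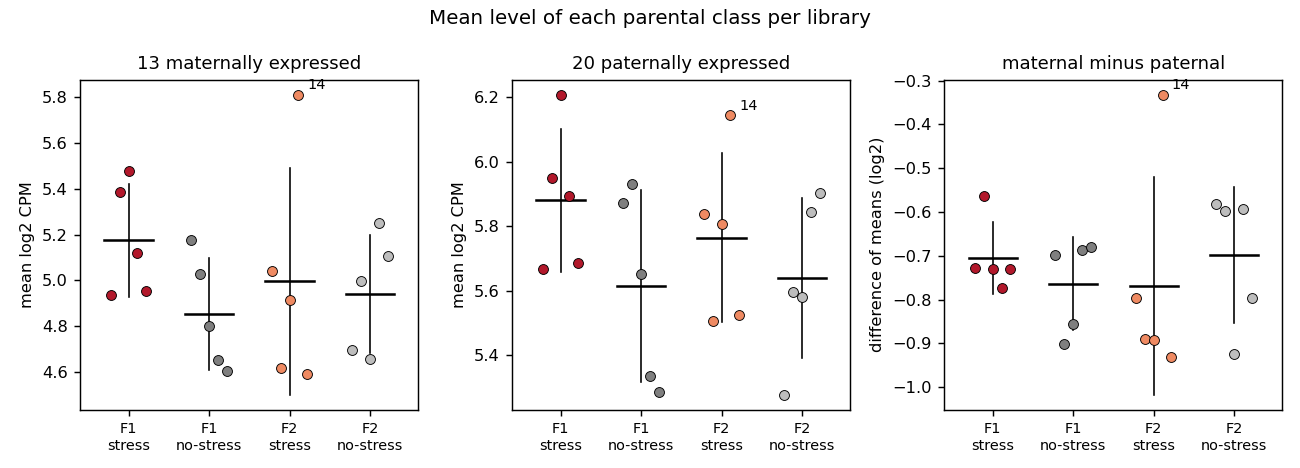
Mean log2 CPM per mouse of the 13 tested maternally expressed genes, the 20 tested paternally expressed genes and their difference in the 4 groups, with group means and SD of 5 mice. Groups overlap in each panel, and F2 stress replicate 14 has the highest maternal mean and the highest difference.

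Neighbouring genes of other clusters were also compared across mice. In the Peg3 cluster the zinc-finger gene Peg3 and its neighbour Usp29, a ubiquitin protease, had r = 0.89 and rho = 0.88 (permutation p = 3e-05 for each, adjusted 7e-05), and r = 0.85 without the 2 farthest libraries, replicates 14 and 20. With striatal and pallial scores regressed out, r was 0.37 (permutation p = 0.15). Snrpn and Ndn, a growth-suppressor of the MAGE family in the same cluster, had r = 0.46 and rho = 0.52 (permutation p = 0.013 and 0.017; adjusted 0.018 and 0.024), and r = 0.49 without F2 no-stress replicates 18 and 20. Snrpn and Ube3a, expressed from opposite copies, had r = -0.29 and rho = -0.25 (permutation p = 0.20 and 0.30, adjusted 0.22 and 0.30). Without those libraries r was -0.13. With striatal and pallial scores regressed out, r was -0.47 (permutation p = 0.038, adjusted 0.053). Snrpn and Snurf had r = 0.90 and rho = 0.88 (permutation p = 1e-05 for each, the smallest possible), and r = 0.81 without replicates 18 and 20, and share exons. In all, 7 pairs were computed.

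Within the no-stress lineage, F2 minus F1, no imprinted gene was called by edgeR, against 2% of all genes; DESeq2 called 3 (Mirg, Copg2 and Ube3a), beside 1028 of 16727 genes (6.15%), and limma-voom 0. By edgeR 4 of 38 passed at an unadjusted p below 0.05 (10.5%), against 20.2%. Positive values numbered 15 of 38 (39.5%), against 52.5%. The 4 that passed at an unadjusted p below 0.05 were Meg3 and Mirg, both higher in F2 no-stress mice, and Copg2 and Ube3a, both lower. The same F2 no-stress mice serve as the comparison for the F2 lineage effect, so the values of both comparisons for these genes are not independent.

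Of 44 further imprinted genes, 32 were tested. None was called in F1. In F2, Casd1, an enzyme of sialic acid acetylation next to Sgce, was higher in stress mice (log2 fold change 0.26, SE 0.075, edgeR, adjusted p = 0.041), as was the glutaminyl cyclase Qpct (0.42, SE 0.13, adjusted p = 0.049). Begain, a postsynaptic gene beside Dlk1, was lower (-0.45, SE 0.13, adjusted p = 0.038). That is 3 of 32 (9.38%), against 7.92% of all genes, with a median of 0.017 over the list. Of 20 genes that set or keep imprints, 17 were tested. None was called in F1, and 1 was called in F2 (5.88%): Ehmt2, the histone methyltransferase G9a, was lower in stress mice (-0.52, SE 0.12, edgeR, adjusted p = 0.016). No call of either list in F2 remained with the GC and length offset, where the smallest adjusted p was 0.24 for the imprinted genes and 0.12 for the regulators. With it the log2 fold change was 0.14 for Casd1, 0.28 for Qpct, 0.024 for Begain and -0.095 for Ehmt2.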

How the data were processed

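RNA-seq counts per gene came from 20 amygdala libraries made with a stranded poly-A kit, per the labels' protocols. The alignment used STAR 2.5.3a and the build GRCm38, per the submitters' processing notes. How reads were counted, with which annotation and strand setting, is not given in the sources used here. Counts as deposited are whole numbers whose library totals are nearly equal, so a scaling or sampling step not described in the labels may have come before deposit, and the original depth is unknown.

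The members, classes and lists were chosen with earlier results of these data known. Genes kept by filterByExpr were fitted with edgeR 4.0.16 (R 4.3.3; TMM, robust quasi-likelihood F test, 1 mean per group, all 20 libraries; Benjamini-Hochberg over 16727 genes; called below 0.05). Contrasts were stress minus no-stress in F1 and in F2, their difference, and F2 minus F1 in the no-stress lineage. Ratios used log2 of counts plus 0.5. Log2 CPM for class means and correlations used a prior count of 2. Full values are given for Meg3, Dlk1, Snrpn, Ube3a, any called gene and, among the remaining genes, the 3 of smallest p in F1 and in F2. Other genes named with values were chosen after their values were seen. Alternatives used DESeq2 1.42.0, limma 3.58.1 (voom) and sva 3.50.0, other scalings and filters, covariates, a GC and length offset from GENCODE M21 (splines of 5 df) and each library left out. The fits were tested on simulated data. Figures used matplotlib 3.10.9.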

Additional observations from a re-analysis of the deposited data

Results flagged for a closer look

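In 48 groups of 5 mice formed by the fully described genes and ratios, 3 mice stood apart from their group by Dixon's criterion, a gap to the nearest mouse of over 0.71 of the group's range; chance alone gives about 1 in 20 groups. Ube3a was at 115 CPM in F1 no-stress replicate 9, against 130 to 134 CPM in the other 4 mice of its group. Commd1 was at 15.5 CPM in F1 stress replicate 5, against 10.5 to 10.9 CPM in the other 4. Calcr was at 10.9 CPM in F2 stress replicate 14, against 0.453 to 2.42 CPM in the other 4.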

How the results depend on the processing

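The count of imprinted genes called in F1 was 3 with striatal and pallial scores (Peg3, Zim1, Kcnk9; 1.32% of all genes) and 0 under the other alternatives run. In F2, where 1 was called, the count was 0 with library totals (7.26% of all genes), no low-count filter (2.48%), only the groups compared (0%), and the GC and length offset (0.0478%). It was 2 with relative log expression factors, upper-quartile factors and DESeq2 (8.04 to 12.3%), 3 with weighted limma-voom and at an adjusted p of 0.1 (15.3% and 15%), 5 without F2 replicates 14 and 20 together (13.2%), and 7 with 1 surrogate variable (13.2%) and with striatal and pallial scores (17.1%). For the difference between generations, where 0 were called, it was 1 with DESeq2, 1 surrogate variable, the scores and an adjusted p of 0.1 (3.56 to 10.7%), and 2 with weighted limma-voom (14.5%) and without replicates 14 and 20 (9.8%). For F2 minus F1 in the no-stress lineage, with 0 called, it was 1 with relative log expression factors, upper-quartile factors, a filter of CPM of at least 1 and without replicates 14 and 20 (1.9 to 3.76%), 2 with weighted limma-voom (5.89%), and 3 with DESeq2, 1 surrogate variable, the scores and an adjusted p of 0.1 (3.88 to 9.01%). With each library left out in turn the counts ran from 0 to 0 in F1, 0 to 3 in F2, 0 to 2 for the difference and 0 to 2 for the generations.

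The Snrpn over Ube3a difference was 0.054 in F1 and -0.30 in F2 with the offset, and r was -0.37 for Meg3 with Dlk1 and 0.37 for Peg3 with Usp29 with scores regressed out. Signs also turned for Snrpn in F1 (0.018 with library totals, 0.012 with the offset) and F2 (-0.020, offset), Ube3a in F1 (-0.048, offset), Commd1 in F2 (-0.021 with weighted limma-voom, -0.0049 with the offset), Copg2 in F1 (0.018 with library totals, 0.0096 with 1 surrogate variable), and Calcr (-0.18) and Impact (-0.083) in F1 with 1 surrogate variable. The cause was not tested. With each library left out, differences ran from -0.15 to 0.55 (Dlk1 over Meg3, F1), 0.89 to 1.48 (F2), -0.22 to -0.067 (Snrpn over Ube3a, F1; exact p from 0.032) and -0.31 to -0.14 (F2). Maternal minus paternal medians ran from -0.17 to 0.26 in F1 and -0.083 to -0.0024 in F2. Log2 fold changes ran from -0.063 to 0.015 for Snrpn and -0.060 to 0.015 for Copg2 in F1, and from -0.049 to 0.17 for Commd1 in F2.

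No paired analysis was possible because each mouse has its own replicate number, 1 to 20, and no groups share numbers. Counts of Calcr averaged 24.2 per library and those of Mkrn3 9.65, so their fold changes rest on few reads.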
